A study of Mus musculus with 6 samples.

Results

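The genes described here code for the proteasome, its immune form and its activators. They are the rows of the deposited expression table that were marked as protein coding and whose symbol begins with Psma, Psmb, Psmc, Psmd, Psme or Psmf and a number. This rule took 45 of 17924 genes in the table. RNA-seq was performed on fibroblasts from the dorsal dermis of newborn (P0) C57BL/6J mice after 14 days of culture in adipocyte differentiation medium, with 3 libraries from CTL cells and 3 from Nelfb-/- cells. Nelfb codes for a subunit of the negative elongation factor, which holds RNA polymerase II near the start of genes. Nelfb-/- cells came from mice with Nelfb fl/fl alleles and CTL cells from mice with fl/wt or wt/wt alleles of Nelfb. Both groups were Pdgfra-Cre+ and thus carried a Cre recombinase under the promoter of Pdgfra, a gene of fibroblasts and fat cell progenitors. Which of the control genotypes each CTL library had was not given in the labels. Nelfb itself was measured at 17.3, 19.6 and 22.3 CPM across the CTL libraries (replicates 1, 2 and 3) and at 5.50, 3.90 and 5.55 CPM across the Nelfb-/- libraries, given in the same order, a log2FC of -1.99 (± 0.22 SE, adjusted p = 0.0050 in limma).

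The proteasome degrades proteins that carry chains of ubiquitin. Its 20S core is a barrel of stacked rings, in which the alpha subunits form the gate and the beta subunits Psmb5, Psmb6 and Psmb7 cut the protein. The 19S cap holds a ring of ATPases that unfold the substrate and further subunits that bind or remove ubiquitin. In cells exposed to interferon gamma and in many immune cells, Psmb8, Psmb9 and Psmb10 replace the catalytic beta subunits in the same order, and the PA28 cap of Psme1 and Psme2 can take the place of the 19S cap. This immunoproteasome is known for making peptides that are presented by MHC class I. For this reason these 5 genes were set apart from the 31 constitutive subunits, 14 of the 20S core and 17 of the 19S cap. The other 9 genes code for a close copy of Psme2, other activators, an inhibitor, assembly chaperones, a testis form of an alpha subunit and a protein that only shares the name.

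Values are given in CPM, in which each library sums to 1e+06 over the genes of the table, with no correction for gene length. Depth was estimated from the steps between low CPM values, at 17.2 to 29.4 M reads per library (M, 1e+06). The floor of detection was set at 3 reads, which were worth 0.102 to 0.175 CPM. Log2 fold changes (log2FC) are Nelfb-/- relative to CTL on log2 values with 1 read added, with the standard error (SE) of the fit in limma, and p was adjusted over all 16252 genes tested. The first principal component parted the genotypes and held 59.9% of the variance, whereas the second held 27.7% and parted CTL replicate 3 from the other CTL libraries and Nelfb-/- replicate 1 from the other Nelfb-/- libraries. The sum of 12 macrophage markers was 190.9 to 707 CPM across the CTL libraries and 1758 to 6021 CPM across the Nelfb-/- libraries, with the highest sum in Nelfb-/- replicate 1, and 11 of the 12 were called higher, Cd68 being the exception. None of the 12 was at 0 in any library, but Aif1 was near the floor in CTL, with 0.0451, 0.187 and 0.102 CPM. Ptprc, the pan-leukocyte CD45, had 2.86 to 9.11 CPM across the CTL libraries and 16.9 to 71.3 CPM across the Nelfb-/- libraries. The 8 adipocyte markers summed to 22767 to 36418 CPM across the CTL libraries and 15535 to 23732 CPM across the Nelfb-/- libraries. Of the 8, 5 were lower, and the median log2FC was -0.50. An unadjusted p under 0.05 in limma was found for 5, of which Adipoq, Plin1 and Pparg were lower and Plin4 and Lep higher. Only 1, Lep, was called. Of the 8 fibroblast and progenitor markers, 8 had a positive log2FC (median 1.36), 6 had an unadjusted p under 0.05 in limma and 1, Dlk1, was called higher. They summed to 3189, 2725 and 12264 CPM across the CTL libraries and 6785, 24773 and 26387 CPM across the Nelfb-/- libraries, so that the groups overlapped at CTL replicate 3 and Nelfb-/- replicate 1. Of 5 endothelial markers tested, 0 were called in limma and 1 had an unadjusted p under 0.05. For keratinocytes 3 of 5 were called higher, with sums of 2.28 to 3.16 CPM across the CTL libraries and 8.68 to 21.9 CPM across the Nelfb-/- libraries, and the lymphocyte markers were not analysed here. The part of these other cells in the results on proteasome genes was not tested, and in such bulk libraries fewer cells of a type and less RNA per cell cannot be told apart.

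Of the 45 genes, 44 were tested, and 2 of them (4.55%) had an adjusted p of at most 0.05 in limma, where 15.8% of all tested genes did. Both, Psme1 and Psme2, were lower in Nelfb-/- cells, against 5.83% of all genes called lower. With a change of at least 2-fold as a further limit, 0 of the 44 remained, against 11.2% of all genes. At an unadjusted p under 0.05 there were 9 of the 44 (20.5%), against 32.5% of all genes. The groups did not overlap for 8 genes that were lower and 5 that were higher in Nelfb-/- cells, which makes 13 of the 44 (29.5%) and compares with 38.1% of all tested genes, 16.1% lower and 22% higher. In either direction, each of these shares was smaller for the proteasome genes than for all genes, whereas groups apart and lower were 18.2% of the proteasome genes. Of the calls over all genes 63.1% were higher in Nelfb-/- cells, against 49.7% after quantile normalization of the libraries, and both proteasome calls were lower with either. Their median log2FC was -0.04, beside 0.07 for all tested genes. Psma8 was the gene that was not tested, since its mean was under 10 reads.

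**Figure D1:**
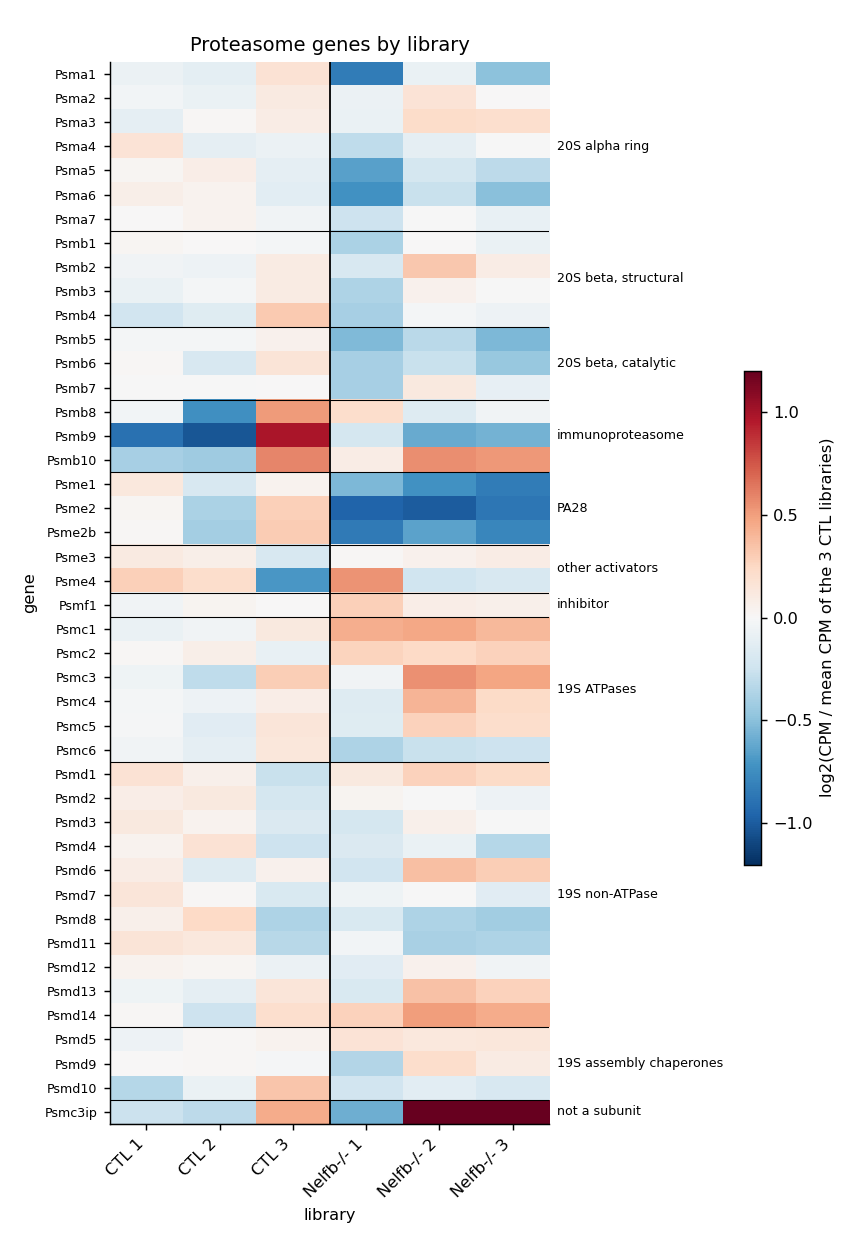
Log2 ratio of the CPM of each of the 44 tested proteasome genes (rows, grouped by role) in each of the 6 libraries (columns) to the mean CPM of the 3 CTL libraries. Blue is lower and red is higher, and Psmc3ip exceeds the end of the colour scale in Nelfb-/- replicates 2 and 3. Psme1, Psme2 and Psme2b are blue in all 3 Nelfb-/- libraries, Psmc1 is red in all 3, and for Psmb8, Psmb9 and Psmb10 CTL replicate 3 is the darkest red of the CTL libraries.

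The genes with the clearest decrease, Psme1 and Psme2, are near neighbours on chromosome 14, 5911 bases apart, and are shown here with the stretch of 250 bases upstream of their RefSeq start, next to those of Psmb5, Psmb6 and Psmb8, which hold motifs known from proteasome and interferon control. The sequences are from RefSeq on GRCm38.p6, on the strand of the gene, and capitals mark a match to a motif on either strand: the GC box (GGGCGG) in Psme1, Psme2 and Psmb6, the core of the antioxidant response element (TGACNNNGC) in Psmb5 and Psmb6, and the gamma-activated site (TTCNNNGAA) in Psmb8. The stretches lie at chr14:55578244-55578493 (plus strand) for Psme1, chr14:55591102-55591351 (minus) for Psme2, chr14:54617996-54618245 (minus) for Psmb5, chr11:70525107-70525356 (plus) for Psmb6 and chr17:34197945-34198194 (plus) for Psmb8. The RefSeq start was 10 to 27 bases from the gene start in GENCODE vM21 for Psme2, Psmb5 and Psmb6. It was 371 bases from it for Psme1 and 474 bases for Psmb8, downstream of the gene start in both. The stretches of Psme1 and Psmb8 thus lie wholly within the genes.
Psme1: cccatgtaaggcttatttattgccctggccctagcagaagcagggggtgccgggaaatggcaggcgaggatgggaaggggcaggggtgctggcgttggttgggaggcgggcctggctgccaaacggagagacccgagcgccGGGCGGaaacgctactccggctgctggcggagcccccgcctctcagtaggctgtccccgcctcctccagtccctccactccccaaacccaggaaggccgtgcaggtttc
Psme2: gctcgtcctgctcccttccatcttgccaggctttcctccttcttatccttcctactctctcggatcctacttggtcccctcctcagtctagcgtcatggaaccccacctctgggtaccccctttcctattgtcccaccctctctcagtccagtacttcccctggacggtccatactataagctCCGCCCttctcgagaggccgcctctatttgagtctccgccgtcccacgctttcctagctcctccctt
Psmb5: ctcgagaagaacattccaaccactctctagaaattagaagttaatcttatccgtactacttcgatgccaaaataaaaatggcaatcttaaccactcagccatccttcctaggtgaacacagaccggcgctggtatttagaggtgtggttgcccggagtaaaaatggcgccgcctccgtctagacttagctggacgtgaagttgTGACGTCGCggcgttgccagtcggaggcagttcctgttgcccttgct
Psmb6: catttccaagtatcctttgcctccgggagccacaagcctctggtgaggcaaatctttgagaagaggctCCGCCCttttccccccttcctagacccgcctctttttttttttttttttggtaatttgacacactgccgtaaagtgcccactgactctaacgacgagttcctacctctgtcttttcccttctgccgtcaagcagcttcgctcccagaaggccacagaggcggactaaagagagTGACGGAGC
Psmb8: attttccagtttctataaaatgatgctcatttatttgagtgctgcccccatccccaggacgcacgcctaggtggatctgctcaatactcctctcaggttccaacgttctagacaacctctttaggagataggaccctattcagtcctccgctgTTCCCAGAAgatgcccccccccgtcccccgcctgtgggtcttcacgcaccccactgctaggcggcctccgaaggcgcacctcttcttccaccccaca

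Promoters were found within 500 bases of the gene start for 35 of the proteasome genes and for 9317 tested protein-coding genes in all. The CCAAT box (CCAAT) was in 14 of the 35 (40.0%) and in 37.1% of all promoters, and the GC box in 19 (54.3%) and 59.8%. A core bound by ETS factors (CCGGAAG) was in 11 of the 35 (31.4%) and in 14.2% of all. The core of the antioxidant response element, to which Nfe2l1 and Nfe2l2 bind, was in 4, those of Psmb5, Psmb6, Psmc6 and Psmd12 (11.4%), and in 12.3% of all. The core of the interferon-stimulated response element was in 2, those of Psmb3 and Psmd4, and in 2.6% of all. The gamma-activated site, a motif of the interferon gamma response, was in 1, that of Psmb8, and in 5.7% of all. A match is a description of the letters in these windows, and no match at Psme1 or Psme2 says only that the letters of that motif were not there.

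Psme1 (ENSMUSG00000022216, chromosome 14 from 55578123 to 55581529 on GRCm38), which codes for PA28 alpha, had 44.9, 36.0 and 42.3 CPM across the CTL libraries (replicates 1, 2 and 3) and 28.2, 24.8 and 22.9 CPM across the Nelfb-/- libraries, given in the same order. All Nelfb-/- values lay below all CTL values, and the mean of Nelfb-/- cells was 61.6% of that of CTL. Its log2FC was -0.70 (± 0.15 SE, adjusted p = 0.029 in limma). Psme2 (ENSMUSG00000079197, chromosome 14 from 55587441 to 55591113), which codes for PA28 beta, the partner of PA28 alpha in the ring, had 12.3, 9.30 and 14.7 CPM across the CTL libraries and 6.22, 6.03 and 6.61 CPM across the Nelfb-/- libraries. The 3 Nelfb-/- libraries were close to each other and below each CTL library, at 52.0% of the CTL mean. The log2FC of Psme2 was -0.91 (± 0.22 SE, adjusted p = 0.037 in limma). Both calls were close to the limit. The call of Psme1 was lost without CTL replicate 1 (limma, adjusted p = 0.118), CTL replicate 2 (0.0659), Nelfb-/- replicate 2 (0.0952) or Nelfb-/- replicate 3 (0.129), with log2FCs between -0.79 and -0.63 over all 6 such fits. The call of Psme2 was lost without CTL replicate 1 (limma, adjusted p = 0.131), CTL replicate 2 (0.0548), Nelfb-/- replicate 1 (0.0564), Nelfb-/- replicate 2 (0.112) or Nelfb-/- replicate 3 (0.122), with log2FCs between -1.09 and -0.76. Without moderation of the variances, the adjusted p in limma was 0.060 for Psme1 and 0.074 for Psme2.

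Psme2b (ENSMUSG00000078153, chromosome 11 from 48945354 to 48946190), a copy of Psme2 whose annotated exon fills all 837 bases of the gene, was measured at 54.1, 40.3 and 65.9 CPM across the CTL libraries and at 29.6, 34.3 and 31.0 CPM across the Nelfb-/- libraries. Its groups did not overlap either, and its log2FC was -0.73 (± 0.20 SE, adjusted p = 0.056 in limma). Reads cannot always be told apart between these copies, since 52.0% of the stretches of 100 bases in Psme2b transcripts were also found in Psme2 and 18.4% of those in Psme2 also in Psme2b. How such reads were counted is not given in the sources used here, so that the level of each is uncertain. Summed over Psme1, Psme2 and Psme2b, CTL libraries held 85.6 to 123 CPM and Nelfb-/- libraries 60.5 to 65.1 CPM. The other activators had values in which the groups overlapped. Psme3, which codes for the nuclear PA28 gamma, had 121, 118 and 98.2 CPM across the CTL libraries and 113, 116 and 120 CPM across the Nelfb-/- libraries, a log2FC of 0.06 (± 0.13 SE, adjusted p = 0.80 in limma). Psme4, which codes for the activator PA200, had 201, 191 and 102 CPM across the CTL libraries and 239, 139 and 144 CPM across the Nelfb-/- libraries, a log2FC of 0.10 (± 0.34 SE, adjusted p = 0.87 in limma). The sign for both was not stable, since Psme3 had -0.04 and Psme4 -0.22 without CTL replicate 3, Psme3 had -0.01 after median-of-ratios size factors, and Psme4 had -0.15 without Nelfb-/- replicate 1. Psmf1, which codes for an inhibitor of the 20S core, had 30.8, 32.5 and 31.8 CPM across the CTL libraries and 38.6, 33.5 and 33.0 CPM across the Nelfb-/- libraries. All Nelfb-/- values of Psmf1 were higher, but its log2FC of 0.14 (± 0.13 SE, adjusted p = 0.49 in limma) did not pass the test.

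**Figure D2:**
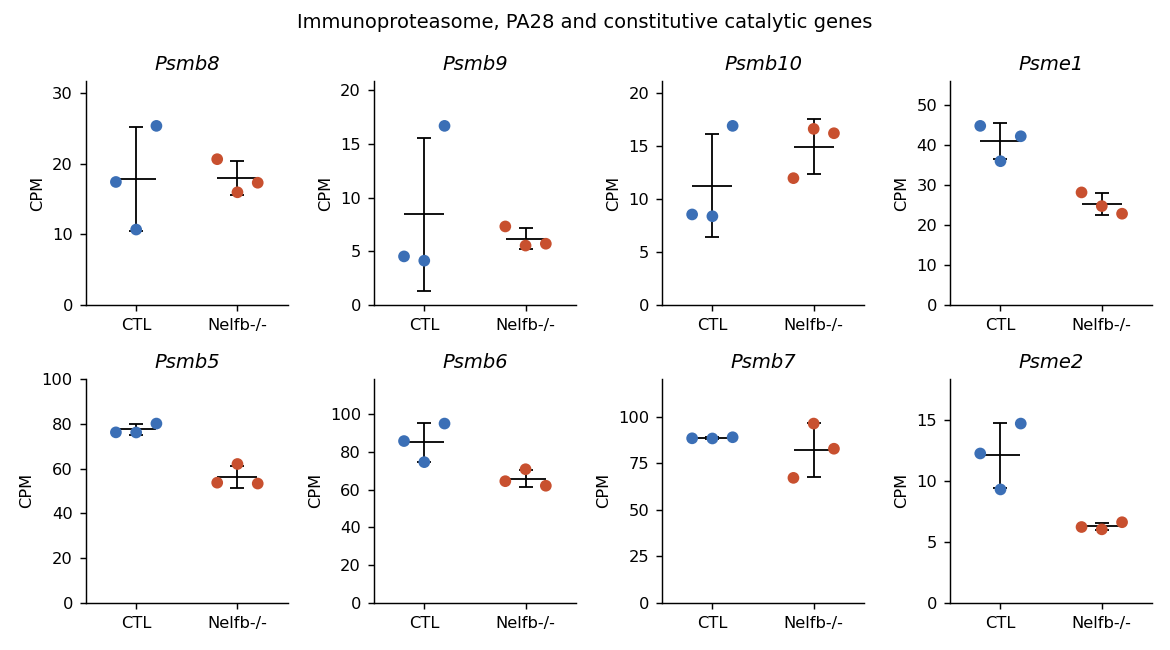
CPM (y axes, starting at 0) of the immunoproteasome subunits Psmb8, Psmb9 and Psmb10, of their constitutive counterparts Psmb5, Psmb6 and Psmb7 below them, and of Psme1 and Psme2, in CTL (blue) and Nelfb-/- (red) libraries. Points are the libraries in the order of their numbers, and bars are the mean ± SD (n = 3). The groups are apart for Psme1, Psme2, Psmb5 and Psmb6 and overlap for the other 4 genes, where CTL replicate 3 is the highest of the CTL libraries.

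None of the 3 catalytic subunits of the immunoproteasome passed the test, and none had an unadjusted p under 0.05 in limma. Psmb8 (beta 5i, chromosome 17 from 34197721 to 34201454) had 17.4, 10.7 and 25.3 CPM across the CTL libraries and 20.6, 15.9 and 17.3 CPM across the Nelfb-/- libraries. The Nelfb-/- values lay within the range of CTL, with a log2FC of 0.09 (± 0.32 SE, adjusted p = 0.87 in limma). Psmb9 (beta 1i, chromosome 17 from 34181987 to 34187764) had 4.54, 4.14 and 16.7 CPM across the CTL libraries and 7.32, 5.54 and 5.71 CPM across the Nelfb-/- libraries. CTL replicate 3 was far above the other 5 libraries, all of which were under 8 CPM, and the log2FC was -0.15 (± 0.54 SE, adjusted p = 0.88 in limma). Psmb10 (beta 2i, chromosome 8 from 105935735 to 105938444) had 8.57, 8.40 and 16.9 CPM across the CTL libraries and 12.0, 16.6 and 16.2 CPM across the Nelfb-/- libraries. Again CTL replicate 3 was the highest library, and the log2FC was 0.47 (± 0.32 SE, adjusted p = 0.35 in limma). These values depended on single libraries. Without CTL replicate 3, Psmb8 had 0.39 with the sign unchanged, Psmb9 turned to 0.50 (limma, adjusted p = 0.16), and Psmb10 passed the test with 0.80 (limma, adjusted p = 0.045). The sign of Psmb8 turned without CTL replicate 2 (-0.23), without Nelfb-/- replicate 1 (-0.01) and after quantile normalization (-0.06). The 95% intervals of the log2FC were wide, from -0.68 to 0.86 for Psmb8, from -1.44 to 1.15 for Psmb9 and from -0.29 to 1.23 for Psmb10, so that a 2-fold change lay within the interval in both directions for Psmb9 and in the direction of an increase for Psmb10, and outside it for Psmb8. In CTL replicate 3 the macrophage markers had their lowest sum, 190.9 CPM, the adipocyte markers the lowest sum of CTL, 22767 CPM, and the fibroblast and progenitor markers the highest sum of CTL, 12264 CPM. The part of these cells in the values of the 3 genes was not tested. The median log2FC of the 5 genes set apart was -0.15, beside -0.06 for the constitutive subunits, and without CTL replicate 3 it was 0.39.

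Psmb8 and Psmb9 lie 9956 bases apart on chromosome 17 with the peptide transporter gene Tap1 between them, and Tap1 overlaps Psmb9 by 212 bases, so that reads from that overlap are uncertain. Tap1 had 27.7, 18.7 and 57.5 CPM across the CTL libraries and 43.1, 34.4 and 28.4 CPM across the Nelfb-/- libraries, a log2FC of 0.16 (± 0.41 SE, adjusted p = 0.815 in limma) whose sign turned without CTL replicate 2 (-0.20). As for Psmb8 and Psmb9, the highest value of Tap1 was in CTL replicate 3 and the lowest in CTL replicate 2.

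The constitutive partners of these subunits were more abundant. Psmb5 (beta 5, chromosome 14 from 54614119 to 54618022) had 76.2, 76.1 and 80.1 CPM across the CTL libraries and 53.7, 62.1 and 53.3 CPM across the Nelfb-/- libraries. The Nelfb-/- libraries were all below CTL, at 72.7% of its mean, and the log2FC of -0.46 (± 0.12 SE, adjusted p = 0.0501 in limma) missed the limit by little. Psmb5 passed with another scaling of the libraries, with an adjusted p of 0.033 in limma after median-of-ratios size factors and 0.044 after quantile normalization, as well as with a pseudocount of 5 reads. It was farther from the limit with a replicate block (limma, adjusted p = 0.107), with no abundance trend (0.089) and with 1 library left out (0.061 to 0.205). Psmb6 (beta 1, chromosome 11 from 70525367 to 70527858) had 85.7, 74.5 and 94.9 CPM across the CTL libraries and 64.4, 70.8 and 62.0 CPM across the Nelfb-/- libraries. It was also lower in each Nelfb-/- library than in any CTL library, but its log2FC of -0.37 (± 0.14 SE, adjusted p = 0.13 in limma) did not pass. Psmb7 (beta 2, chromosome 2 from 38588036 to 38644087) had 88.6, 88.5 and 89.1 CPM across the CTL libraries and 67.3, 96.5 and 82.9 CPM across the Nelfb-/- libraries. The CTL values were nearly the same and the Nelfb-/- values lay on both sides of them, with a log2FC of -0.12 (± 0.16 SE, adjusted p = 0.63 in limma) that was 0.01 without Nelfb-/- replicate 1.

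The share of each immune subunit in its pair was set per kb of exonic length, as CPM per kb of the immune subunit over the sum of both. The share of Psmb8 beside Psmb5 was 5.73%, 3.60% and 7.76% in CTL and 9.27%, 6.40% and 7.94% in Nelfb-/- cells. These groups overlapped, and the mean log2 ratio was 0.55 higher in Nelfb-/- cells (exact two-sided permutation test, p = 0.2, adjusted p = 0.45, n = 3 in each group). With 1 library left out, this difference was between 0.24 and 0.82. For Psmb9 beside Psmb6 the share was 2.64%, 2.76% and 8.24% in CTL and 5.49%, 3.85% and 4.50% in Nelfb-/- cells. The mean log2 ratio was 0.22 higher in Nelfb-/- cells (exact permutation test, p = 0.8, adjusted p = 0.8), with the top share in CTL replicate 3 and a sign that turned without CTL replicate 1 (-0.08) or CTL replicate 2 (-0.04). For Psmb10 beside Psmb7 the share was 16.3%, 16.0% and 27.6% in CTL and 26.4%, 25.7% and 28.2% in Nelfb-/- cells. CTL replicate 3 was among the Nelfb-/- values and the other CTL libraries were below them, with a log2 ratio 0.59 higher in Nelfb-/- cells (exact permutation test, p = 0.3, adjusted p = 0.45). The difference for this pair was between 0.42 and 0.92 with 1 library left out. With 3 libraries in each group this test cannot give a p below 0.1, and p was adjusted over the 3 pairs.

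**Figure D3:**
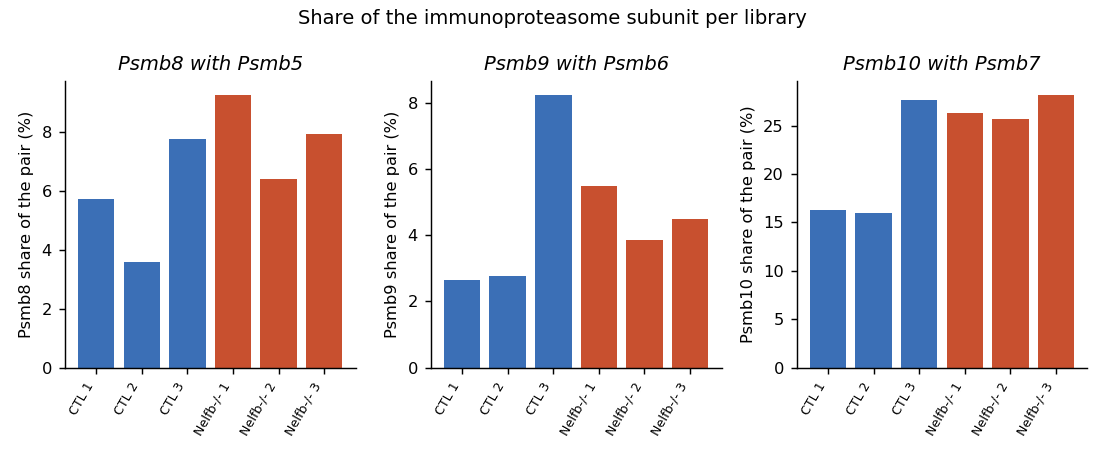
Share of the immunoproteasome subunit in each catalytic pair (y axes, in %, from CPM per kb of exonic length, starting at 0) in the 3 CTL (blue) and 3 Nelfb-/- (red) libraries, with 1 bar for each library. In all 3 pairs CTL replicates 1 and 2 lie below every Nelfb-/- library, and CTL replicate 3 lies within the Nelfb-/- range for Psmb8 and Psmb10 and above it for Psmb9 (8.24% against 3.85% to 5.49%).

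Among the 31 constitutive subunits, 0 had an adjusted p of at most 0.05 in limma and 6 (19.4%) an unadjusted p under 0.05, where 32.5% of all tested genes did. The groups were apart for 8 of the 31 (25.8%, against 38.1% of all genes), 5 lower (16.1%, the same share as of all genes) and 3 higher (9.68%, against 22%) in Nelfb-/- cells. The medians of the 20S core and the 19S cap had opposite signs. Of the 14 core subunits 11 were lower, and their median log2FC was -0.14. Of the 17 cap subunits 8 were lower, and their median was 0.12, where all tested genes had 0.07. After median-of-ratios size factors these medians were -0.20, 0.05 and 0.00, and after quantile normalization, which moved the median of all genes to -0.07, they were -0.17 and 0.05 for the core and the cap. The sizes depended on single libraries, with -0.04 for the core (9 of 14 lower) and 0.25 for the cap without Nelfb-/- replicate 1, -0.22 and 0.04 without Nelfb-/- replicate 2, and cap medians of 0.06 without CTL replicate 2 and 0.07 without Nelfb-/- replicate 3. These are descriptions without a test, and in most of the subunits the groups overlapped.

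In the alpha ring, which forms the gate of the core, Psma6 (chromosome 12 from 55384222 to 55418454) had the lowest log2FC. It had 141, 138 and 123 CPM across the CTL libraries and 80.7, 111 and 94.5 CPM across the Nelfb-/- libraries. All Nelfb-/- libraries were below CTL, with a log2FC of -0.49 (± 0.16 SE, adjusted p = 0.083 in limma). Psma5 was also apart, with 34.5, 36.0 and 31.5 CPM across the CTL libraries and 21.7, 29.3 and 27.3 CPM across the Nelfb-/- libraries, a log2FC of -0.39 (± 0.16 SE, adjusted p = 0.15 in limma). Psma1 had a similar value of -0.47 (± 0.22 SE, adjusted p = 0.19 in limma), but at 145 CPM Nelfb-/- replicate 2 was within the CTL range of 141 to 174 CPM. At the other end of the ring, Psma3 had 28.0, 30.5 and 32.2 CPM across the CTL libraries and 28.6, 35.2 and 34.7 CPM across the Nelfb-/- libraries, and the groups overlapped at a log2FC of 0.11 (± 0.14 SE, adjusted p = 0.62 in limma). Nelfb-/- replicate 1 was the lowest of the Nelfb-/- libraries for each of Psma1, Psma3, Psma5 and Psma6, and over the 7 alpha subunits it summed to 415 CPM, against 553 and 490 CPM in Nelfb-/- replicates 2 and 3 and 569 to 589 CPM in CTL. In that same library the macrophage markers had their highest sum (6021 CPM) and the adipocyte markers their lowest (15535 CPM). The fibroblast and progenitor markers had their lowest sum of the Nelfb-/- libraries there, 6785 CPM. The part of these cells in the sums of the subunits was not tested. Of the 4 structural beta subunits, which do not cut proteins, all had overlapping groups. They ranged from Psmb1, with 113, 111 and 109 CPM across the CTL libraries and 85.5, 111 and 105 CPM across the Nelfb-/- libraries, to Psmb2, with 69.3, 68.6 and 76.5 CPM across the CTL libraries and 62.6, 89.3 and 76.0 CPM across the Nelfb-/- libraries. Their log2FCs were -0.15 (± 0.14 SE, adjusted p = 0.50 in limma) for Psmb1 and 0.07 (± 0.16 SE, adjusted p = 0.79 in limma) for Psmb2, the last of which turned to -0.05 without Nelfb-/- replicate 2.

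Of the 6 ATPases of the cap, which unfold the substrate, 5 had a positive log2FC. Psmc1 (Rpt2, chromosome 12 from 100110154 to 100123405) had 71.6, 73.1 and 81.7 CPM across the CTL libraries and 102, 104 and 99.1 CPM across the Nelfb-/- libraries. All Nelfb-/- values were higher, at 135% of the CTL mean, with a log2FC of 0.43 (± 0.12 SE, adjusted p = 0.055 in limma) that passed without CTL replicate 3 (0.49, limma, adjusted p = 0.031) and without moderation of the variances, but not in the other fits, where it reached 0.198. Psmc2 (Rpt1) had 63.7, 66.0 and 59.0 CPM across the CTL libraries and 75.9, 74.4 and 76.2 CPM across the Nelfb-/- libraries. Its groups were apart as well, with a log2FC of 0.27 (± 0.11 SE, adjusted p = 0.16 in limma). Psmc6 (Rpt4) was the exception among the ATPases, with 87.0, 83.0 and 98.2 CPM across the CTL libraries and 69.3, 74.5 and 75.2 CPM across the Nelfb-/- libraries. Its Nelfb-/- values were all lower, at a log2FC of -0.29 (± 0.13 SE, adjusted p = 0.17 in limma). Of the 11 other cap subunits 7 had a negative value. The highest was that of Psmd14 (Rpn11), the enzyme of the cap that removes ubiquitin chains, with 49.9, 41.4 and 56.6 CPM across the CTL libraries and 59.6, 69.9 and 67.2 CPM across the Nelfb-/- libraries. Its groups were apart, with a log2FC of 0.42 (± 0.16 SE, adjusted p = 0.12 in limma). The lowest was that of Psmd8 (Rpn12), with 267, 303 and 199 CPM across the CTL libraries and 226, 198 and 192 CPM across the Nelfb-/- libraries. CTL replicate 3 lay among the Nelfb-/- values of Psmd8, and its log2FC was -0.30 (± 0.19 SE, adjusted p = 0.33 in limma).

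**Figure D4:**
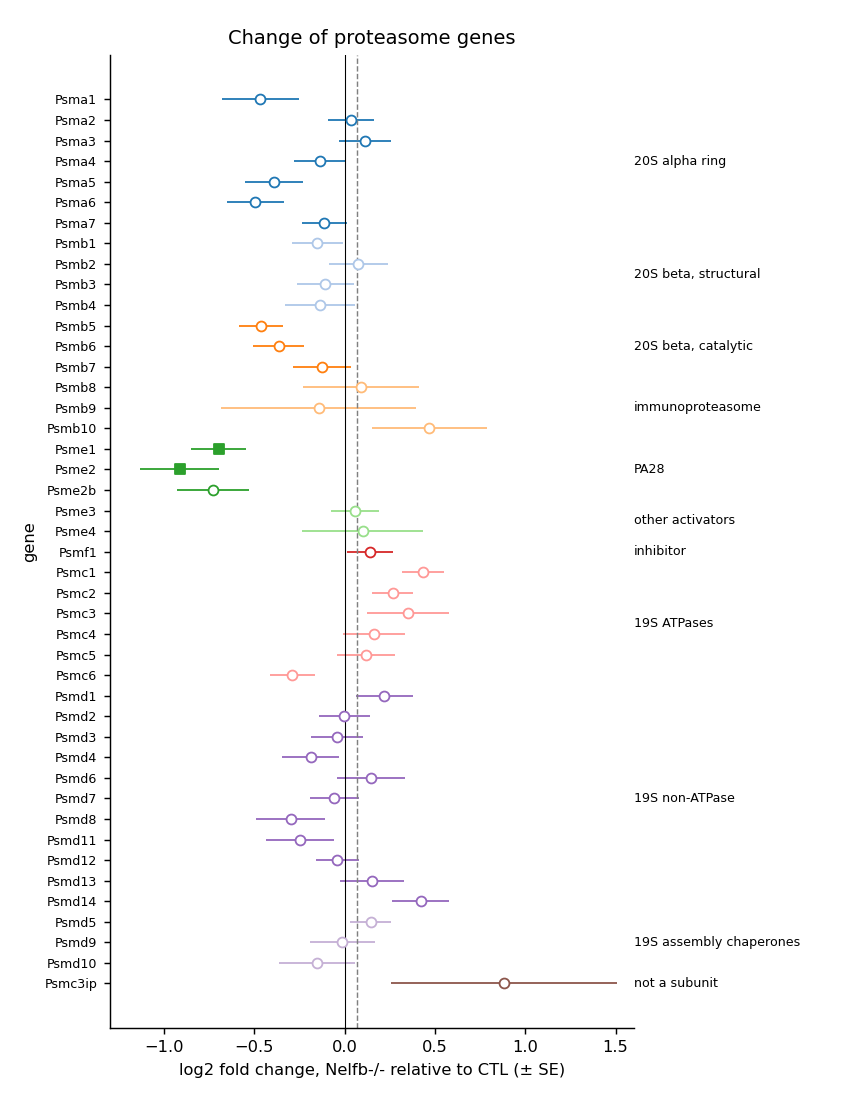
Log2 fold change of the 44 tested proteasome genes (x axis, Nelfb-/- relative to CTL, bars are ± SE of the limma fit), grouped and coloured by role. Filled squares have an adjusted p of at most 0.05 (Psme1 and Psme2), open circles do not, and the dashed line is the median of all genes tested, 0.07.

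In each library, the 14 core subunits summed to 1122, 1095 and 1175 CPM across the CTL libraries and to 837, 1099 and 981 CPM across the Nelfb-/- libraries, and Nelfb-/- replicate 2 was within the CTL range. The 17 cap subunits summed to 1745, 1727 and 1550 CPM across the CTL libraries and to 1619, 1762 and 1677 CPM across the Nelfb-/- libraries, so that these groups overlapped. The ratio of the core sum to the cap sum, which is the same for any single scaling factor per library, was 0.643, 0.634 and 0.758 in CTL and 0.517, 0.624 and 0.585 in Nelfb-/- cells. It was lower in every Nelfb-/- library than in any CTL library, although Nelfb-/- replicate 2 and CTL replicate 2 differed by little.

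**Figure D5:**
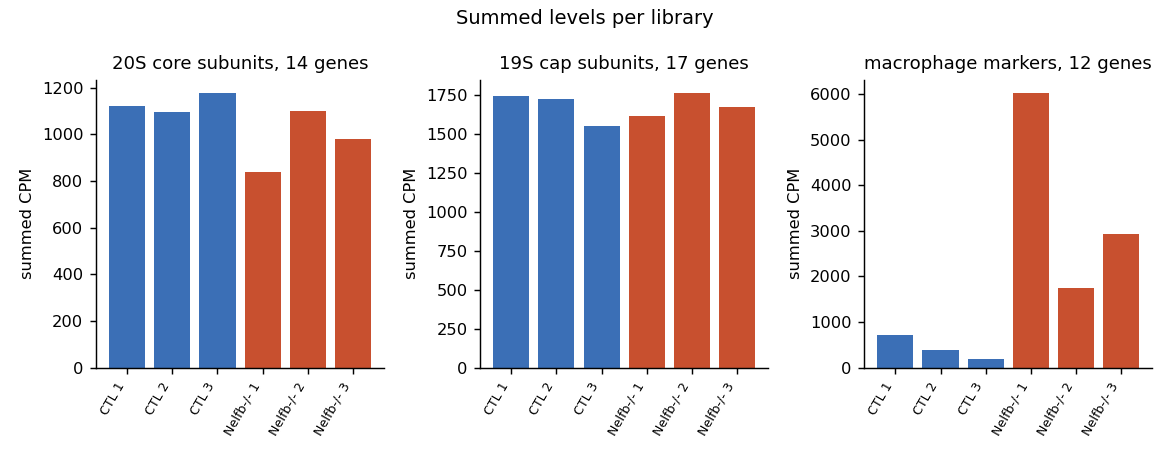
Summed CPM (y axes, starting at 0) of the 14 constitutive core subunits, the 17 constitutive cap subunits and the 12 macrophage markers in the 3 CTL (blue) and 3 Nelfb-/- (red) libraries, with 1 bar for each library. The core sum is lowest in Nelfb-/- replicate 1 (837 CPM), the library with the highest sum of macrophage markers (6021 CPM), and the cap sums overlap between the groups. That library also had the lowest sum of adipocyte markers (15535 CPM, not drawn). Its sum of fibroblast and progenitor markers (6785 CPM, not drawn) was the lowest of the Nelfb-/- libraries.

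Set per kb of exonic length so that genes can be compared, the mean levels of the constitutive subunits in CTL ran from 7.77 CPM per kb for Psma3 to 108 CPM per kb for Psma6, followed by Psmb5 with 86.2 and Psmd8 with 83.8 CPM per kb. The catalytic immune subunits were below the CTL range of the constitutive subunits in both groups, apart from Psmb10 in Nelfb-/- cells, with 6.63 CPM per kb for Psmb10, 5.27 for Psmb8 and 2.31 for Psmb9 in CTL and 8.77, 5.31 and 1.69 CPM per kb in Nelfb-/- cells. Psme1 had 18.6 CPM per kb in CTL and 11.5 in Nelfb-/- cells, and Psme2 had 6.85 and 3.57 CPM per kb. The exonic length counts every annotated exon of a gene, so that these levels are approximate. The levels of Psma3 and Psmb5 are also uncertain, since 13.4% and 22.2% of their stretches of 100 bases are found in other genes. After Psma3, the next constitutive subunit, Psmc2, had 12.5 CPM per kb in CTL, above all 3 catalytic immune subunits in both groups.

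The assembly chaperones of the cap, Psmd5, Psmd9 and Psmd10, are not part of the finished particle. Psmd5 had 43.5, 45.6 and 46.8 CPM across the CTL libraries and 50.8, 49.5 and 49.9 CPM across the Nelfb-/- libraries, a small difference with the groups apart (log2FC 0.14 ± 0.11 SE, adjusted p = 0.42 in limma). Psmd10, also called gankyrin, had 10.7, 12.9 and 17.2 CPM across the CTL libraries and 11.6, 12.5 and 12.0 CPM across the Nelfb-/- libraries. Its log2FC was -0.15 (± 0.21 SE, adjusted p = 0.65 in limma), and 0.03 without CTL replicate 3. Psmc3ip, which has the symbol of an ATPase but codes for a partner protein in meiotic recombination, had 1.06, 1.02 and 1.72 CPM across the CTL libraries and 0.847, 3.72 and 3.84 CPM across the Nelfb-/- libraries. Its log2FC of 0.88 (± 0.63 SE, adjusted p = 0.38 in limma) rested on 2 of the Nelfb-/- libraries, and without Nelfb-/- replicate 1 it was 1.58 (limma, adjusted p = 0.034). Psma8, the alpha subunit known from testis, had 0.135, 0.0467 and 0.238 CPM across the CTL libraries and 1.04, 0.466 and 0.449 CPM across the Nelfb-/- libraries. These are 3, 1 and 7 reads in CTL and 22, 8 and 11 reads in Nelfb-/- cells, against a floor of 3 reads. The groups were apart, with Nelfb-/- higher, but this gene was not tested in the fit reported. It was tested with no filter on low values, without CTL replicate 1 and without CTL replicate 2, and was not called in these fits.

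Genes that work with the proteasome were taken from lists of other factors. Of 14 further subunits, assembly factors and associated proteins, 0 were called in limma and 0 had an unadjusted p under 0.05, against 15.8% and 32.5% of all tested genes. Among them Pomp, which matures the core, had a log2FC of 0.20 (± 0.16 SE, adjusted p = 0.42 in limma), and Adrm1, a ubiquitin receptor of the cap, had -0.18 (± 0.23 SE, adjusted p = 0.62 in limma) and passed only without CTL replicate 3, with -0.43 (limma, adjusted p = 0.0499). Of 5 factors that control proteasome genes, 0 were called in limma and 0 had an unadjusted p under 0.05, beside the same shares of all genes. Nfe2l1, the factor that raises proteasome genes when degradation is blocked, had 546, 525 and 589 CPM across the CTL libraries and 410, 452 and 462 CPM across the Nelfb-/- libraries. Its groups were apart, with a log2FC of -0.33 (± 0.15 SE, adjusted p = 0.19 in limma). The related Nfe2l2 had 100.2, 112 and 105 CPM across the CTL libraries and 165, 119 and 117 CPM across the Nelfb-/- libraries, with the groups apart in the other direction (log2FC 0.32 ± 0.17 SE, adjusted p = 0.24 in limma). Of 9 ubiquitin genes and shuttle factors 1 was called, where 15.8% of all genes were. This was Ubqln2, with a log2FC of 0.75 (± 0.15 SE, adjusted p = 0.023 in limma), and it was named here after its values were seen. Its adjusted p in limma was 0.0778 without CTL replicate 1, 0.0605 without CTL replicate 2, 0.0782 without Nelfb-/- replicate 2, 0.0853 without Nelfb-/- replicate 3 and 0.0589 without moderation of the variances.

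Regulators of the interferon response, the pathway that induces the immunoproteasome genes, were taken as a further list. Of its 11 genes 4 were called higher in Nelfb-/- cells and 0 lower, where 9.96% of all tested genes were called higher, and its median log2FC was 0.90. The kinases Jak1 and Jak2, which act below the interferon receptors, rose by log2FCs of 1.10 (± 0.14 SE, adjusted p = 0.0068 in limma) and 0.89 (± 0.12 SE, adjusted p = 0.0081 in limma), the latter of which was named after its values were seen and lost its call without Nelfb-/- replicate 3 (adjusted p = 0.0561). Irf8, a factor of myeloid cells, had 4.37, 2.24 and 2.58 CPM across the CTL libraries and 38.5, 9.43 and 14.4 CPM across the Nelfb-/- libraries, a log2FC of 2.54 (± 0.54 SE, adjusted p = 0.027 in limma). Its highest value was in Nelfb-/- replicate 1, the library with the most macrophage marker RNA. The call of Irf8 was lost without CTL replicate 1 (limma, adjusted p = 0.0583), CTL replicate 2 (0.0982) or Nelfb-/- replicate 3 (0.0871). Socs1, an inhibitor of the same kinases, rose by 1.68 (± 0.42 SE, adjusted p = 0.042 in limma), a call that was lost without CTL replicate 1 (limma, adjusted p = 0.138), CTL replicate 2 (0.137), Nelfb-/- replicate 2 (0.132) or Nelfb-/- replicate 3 (0.145), as well as after quantile normalization (0.052). Without moderation of the variances, the adjusted p in limma was 0.111 for Socs1 and 0.102 for Irf8. Irf1, a factor that activates immunoproteasome genes, did not pass and had a log2FC of -0.14 (± 0.14 SE, adjusted p = 0.54 in limma). Nlrc5, the activator of MHC class I genes, had 18.5, 17.3 and 16.3 CPM across the CTL libraries and 53.3, 24.8 and 26.0 CPM across the Nelfb-/- libraries. Its groups were apart, with a log2FC of 0.90 (± 0.31 SE, adjusted p = 0.095 in limma), and 0.55 without Nelfb-/- replicate 1 (limma, adjusted p = 0.047). Of 11 genes for peptide loading and MHC class I, 0 were called in limma and 0 had an unadjusted p under 0.05, where 15.8% and 32.5% of all genes did, and the median log2FC was -0.28. Tap2, the other chain of the transporter, had 40.6, 34.3 and 43.3 CPM across the CTL libraries and 33.4, 28.7 and 31.7 CPM across the Nelfb-/- libraries, which was lower in every Nelfb-/- library (log2FC -0.33 ± 0.15 SE, adjusted p = 0.18 in limma).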

How the data were processed

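RNA-seq of CTL and Nelfb-/- cells was analysed from the table that the authors deposited. The submitters' processing notes name STAR 2.7, Partek 9.0.20.0202 and mm10, and the paper's methods name DESeq2 for processing and a limit of 10 reads. The counting of reads and its use of strand are not given in the sources used here. The deposited values are in CPM, with 0.0001 added to each and replicates kept apart. Between 69.3% and 72.0% of values up to 20 reads were whole reads within 0.02, so that no count-based test was used.

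Values were multiplied by 22.3 reads per CPM, the common depth in M reads. The test was that of limma (version 3.58.1 in R 4.3.3) on log2(value + 1), with an abundance trend and Benjamini-Hochberg adjustment, for genes whose mean reached 10 reads or 0.448 CPM. The test was first tried on simulated libraries. Fold changes on this scale understate those of low genes, and 1 read at these depths limits the precision of such genes. Gene positions, IDs, exonic lengths and shared stretches are from GENCODE vM21 (17519 of 17924 genes of the table matched, 99.0% of them with the same start and end). Promoters are from RefSeq (GRCm38.p6).

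Genes named are, in each role, those with the highest and lowest log2 fold change, those called, the 5 set apart and their counterparts, called 2-fold genes of the lists and regulators chosen by name. Psme2b, Psma1, Psma5, Psmc2, Jak2 and Ubqln2 were added after their values were seen. The members and lists were chosen with earlier results of these data known. The labels name separate samples, and biological triplicates are stated in the paper. Replicate numbers were checked for pairing by the correlation of deviations from the group means (0.52, -0.39 and 0.52 for numbers 1, 2 and 3). These differed in sign and the labels name no pairs, so that the numbers were not taken as pairs. Another pseudocount, filter, scaling, variance model, a replicate block and leaving out each library were tried. Psmb11 and Psme3ip1 were not analysed here. A regulator in the interferon list is counted there but its own values are not reported here.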

Additional observations from a re-analysis of the deposited data

How the results depend on the processing

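The limits of these results are the 3 libraries in each group, the lack of whole reads and the spread of CTL replicate 3 and Nelfb-/- replicate 1. The number of proteasome genes at an adjusted p of at most 0.05, 2 in the fit reported, was 4 after median-of-ratios size factors and 4 after quantile normalization, with Psmb5 and Psme2b added each time, and 1 without moderation of the variances (limma), which was Psmc1. With a 2-fold change as well it was 1 after quantile normalization (Psme2), against 0. For all genes, 684 passed with 2-fold and 1126 without that limit when variances were not moderated, against 1824 and 2566. Leaving out 1 library at a time gave 0 to 4 proteasome genes (0 to 1 with 2-fold), 434 to 3668 genes in all (426 to 2479 with 2-fold), a median of the 5 genes set apart between -0.50 and 0.39, and a difference in the log2 ratio of Psmb9 to Psmb6 between -0.08 and 0.78. The 4 genes without CTL replicate 3 were Psmb10, Psmc1, Psme1 and Psme2. The median of the constitutive subunits stayed between -0.12 and 0.01 over 15 alternatives.

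Of the 44 proteasome genes, the sign turned for 2 after median-of-ratios size factors, Psma2 and Psme3 (-0.0087), for 2 after quantile normalization, Psma2 and Psmb8 (-0.059), and for 1 to 7 with 1 library left out. Among the genes and ratios described above, leaving out 1 library turned the sign of Psmb8 (-0.23 without CTL replicate 2 and -0.014 without Nelfb-/- replicate 1, highest 0.39), Psmb9 (-0.50 to 0.50), Psmb7 (-0.25 to 0.012), Psmb2 (-0.049 to 0.21), Psmd10 (-0.31 to 0.027), Psme3 (-0.037 to 0.11), Psme4 (-0.22 and -0.15, highest 0.28), Tap1 (-0.20 to 0.61) and the ratio of Psmb9 to Psmb6 (-0.077 and -0.042). The cause was not tested. Psme1 and Psme2 kept their sign in all 15 alternatives, with adjusted p in limma from 0.019 to 0.13 and from 0.014 to 0.13.

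With the replicate number as a block, 2 proteasome genes were called and 2690 of all genes, and 0 of the proteasome genes passed with 2-fold. The labels do not say whether samples of the same number share anything else. The correlations of 0.52, -0.39 and 0.52 for numbers 1, 2 and 3 cannot decide this. They rest on 3 libraries in each group, in which CTL replicate 3 and Nelfb-/- replicate 1 stood apart.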

Other observations

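Processed pseudogenes and other copies of proteasome genes had rows of their own, and some share stretches of sequence with their parent genes. Psma5-ps had 38.9, 42.5 and 39.7 CPM across the CTL libraries and 25.4, 35.5 and 33.6 CPM across the Nelfb-/- libraries, above the values of Psma5 itself in every library, and Nelfb-/- was lower in every library (log2FC -0.37, adjusted p = 0.18 in limma). Gm3375, which shares 21.1% of the 100-base stretches of Psmb5, had 25.5, 25.6 and 23.6 CPM across the CTL libraries and 16.9, 20.1 and 17.5 CPM across the Nelfb-/- libraries (log2FC -0.45, adjusted p = 0.076 in limma). Psmb6-ps2 had 0.602, 0.724 and 0.818 CPM across the CTL libraries and 0.151, 0.197 and 0.444 CPM across the Nelfb-/- libraries (log2FC -1.40, adjusted p = 0.099 in limma). These rows went the same way as Psma5, Psmb5 and Psmb6. None of the 1961 stretches of 100 bases in Psmb6 was found in another gene, whereas 23.7% of those in Psma5 were, and how many reads of Psma5-ps and Gm3375 came from the parent genes was not tested. Gm13835, which shares 13.4% of the stretches of Psma3, had 93.5, 89.0 and 95.6 CPM across the CTL libraries and 85.9, 112 and 102 CPM across the Nelfb-/- libraries (log2FC 0.10, adjusted p = 0.67 in limma), above Psma3 in every library.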
